A study of Mus musculus with 12 samples.

Results

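A set of 8 transcription factor genes that direct haematopoietic progenitors toward myeloid cells were chosen by name from the annotated count table of mouse LSK cells: Spi1, Cebpa, Cebpb, Cebpd, Cebpe, Gfi1, Irf8 and Klf4. All 8 of the 8 genes were found among the 39017 genes of the table, and all 8 passed the filter on low counts. LSK cells (Lin- Sca1+ cKit+) are the bone marrow fraction that holds stem cells and multipotent progenitors, and RNA was sequenced from 12 libraries in 4 groups of 3. All mice were of the C57BL/6J; Sv/129 background and received poly(I:C), an interferon inducer that switches on Mx1Cre, at 2 ug per g of body weight. Libraries labelled NOTCHWT_TCFWT are described as from wild-type mice, which by the labels also received this dose, and those labelled NICD_TCFWT as from R26 N1IC lox/+ Mx1Cre mice, in which Cre releases the constitutively active intracellular domain of Notch1. By the labels, NICD_TCFKO mice carried R26 N1IC lox/+ and Tcf7 lox/lox with Mx1Cre, and NOTCHWT_TCFKO mice Tcf7 lox/lox with Mx1Cre. These genotypes are in doubt, since 3 genes that check them ran against the labels, as the levels of Tcf7, Notch1 and Dtx1 given below show. Mx1Cre is induced by interferon in haematopoietic and other cells and is not limited to LSK cells. Cells of the NICD groups were sorted with a further CD45.2+ eGFP+ gate, which cannot be told apart from the N1IC label. The ages of the mice are not given in the sources used here, and the labels do not say whether replicates were separate mice. In NICD_TCFWT, NICD_TCFKO and NOTCHWT_TCFKO some libraries held Y-linked transcripts and others did not, so a single mouse did not give all of them. For NOTCHWT_TCFWT, and for libraries alike in these transcripts, this is not known. The p-values speak to the spread among the 12 samples, some of which may be technical.

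PU.1, encoded by Spi1, is an ETS factor needed for myeloid and lymphoid progenitors. C/EBP proteins are leucine zipper factors that bind DNA as pairs: C/EBPα (Cebpa) opens the granulocyte and monocyte path, C/EBPβ and C/EBPδ act in inflammation and emergency myelopoiesis, and C/EBPε (Cebpe) drives the late granule programme of neutrophils. Gfi1 is a zinc finger repressor that favours granulocytes over monocytes and also restrains stem cell cycling, while IRF8 (Irf8) and KLF4 (Klf4) favour monocytes and dendritic cells.

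The genes lie at 8 separate places in the mm10 build, each a protein-coding gene: Spi1 at chr2:91082390-91115756, Cebpa at chr7:35119293-35121928, Cebpb at chr2:167688915-167690418, Cebpd at chr16:15887286-15891031, Cebpe at chr14:54710360-54712174, Gfi1 at chr5:107716657-107726036, Irf8 at chr8:120736358-120756694 and Klf4 at chr4:55527143-55532466. The labels name no strand-specific step, so reads from genes on opposite strands that share exons cannot be told apart. Cebpa shares exon sequence with the antisense gene Gm45091, Cebpb with Tmem189, Cebpd with Spidr and Gfi1 with A430072P03Rik, each on the opposite strand. Gm45091 is not among the genes of the count table, so its level is not known here. Tmem189 had 16056 counts against 1804 for Cebpb, and Spidr had 22069 counts against 905 for Cebpd, summed over the 12 libraries. Values of Cebpa, Cebpb and Cebpd are therefore uncertain.

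RefSeq promoter windows (build GRCm38.p6) were matched for 5 of the 8 genes, with windows at 2 start sites each for Gfi1 and Irf8. The 250 bases upstream of the start are shown for Cebpa, Cebpb and Irf8, for Irf8 at its upstream start. These genes were called higher in both of the first comparisons described below. Gfi1 was called higher in both as well, but its windows are not shown in full. Capitals mark a C/EBP half-site (TTGCG), a GC box (GGGCGG) or a CCAAT box, on either strand. These letters were chosen after the windows had been read. None of them stood in either Gfi1 window or in the downstream Irf8 window. The window of Klf4, a gene not called, held 4 GC boxes. The marks are therefore not a trait of the called genes.
Cebpa, chr7:35119043-35119292, plus strand: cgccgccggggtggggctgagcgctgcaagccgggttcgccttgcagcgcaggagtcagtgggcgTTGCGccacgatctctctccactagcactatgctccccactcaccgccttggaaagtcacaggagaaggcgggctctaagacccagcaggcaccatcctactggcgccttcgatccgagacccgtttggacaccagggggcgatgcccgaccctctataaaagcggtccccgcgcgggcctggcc
Cebpb, chr2:167688665-167688914, plus strand: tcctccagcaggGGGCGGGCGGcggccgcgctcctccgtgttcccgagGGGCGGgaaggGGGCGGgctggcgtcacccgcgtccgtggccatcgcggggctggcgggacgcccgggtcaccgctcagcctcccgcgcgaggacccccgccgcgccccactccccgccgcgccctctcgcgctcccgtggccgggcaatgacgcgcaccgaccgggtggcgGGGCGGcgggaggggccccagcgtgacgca
Irf8, chr8:120736108-120736357, plus strand: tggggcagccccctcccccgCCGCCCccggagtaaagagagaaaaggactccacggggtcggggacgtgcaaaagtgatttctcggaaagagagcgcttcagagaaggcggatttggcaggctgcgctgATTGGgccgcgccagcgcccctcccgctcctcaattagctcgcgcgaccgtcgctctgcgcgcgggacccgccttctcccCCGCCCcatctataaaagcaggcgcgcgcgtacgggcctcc
The Cebpa window held 1 half-site, the Cebpb window 5 GC boxes and the Irf8 window 2 GC boxes and 1 CCAAT box. Half-sites stood in 14.5% of all promoter windows of this length, GC boxes in 32.7% and CCAAT boxes in 33.8%. Of 5 further motifs searched on both strands (C/EBP TTGCNNAA, ETS and PU.1 GAGGAA, RBPJ TGGGAA, TCF/LEF CTTTGA and RUNX TGTGGT), none had a match in these 3 windows. Over all windows of the 5 genes there were 2 matches, 1 of TTGCNNAA in a Gfi1 window and 1 of TGGGAA, on the minus strand, in the window at the downstream start of Irf8. Both are shown with the bases around them, the match in capitals.
Gfi1, chr5:107725929-107725960, minus strand: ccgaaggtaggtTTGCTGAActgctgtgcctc
Irf8, downstream start, chr8:120738389-120738414, plus strand: gtcagggtTTCCCAgccgtcttgatg
The TTGCNNAA letters stood in 9.6% and the TGGGAA letters in 21.6% of 32851 windows. A match describes the letters in the window and is not a binding site.

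The groups are named by their labels because the genes that check them ran partly against those labels. Tcf7 stood at 14.8 ± 4.54 CPM (counts scaled to a common library size; mean ± SD, n = 3) in NOTCHWT_TCFWT, 5.5 ± 1.11 in NICD_TCFWT, 603 ± 300 in NICD_TCFKO and 1.28 ± 1.31 in NOTCHWT_TCFKO. It was thus highest in one of the groups in which its deletion is labelled. Counts cover the whole gene, so reads from parts of Tcf7 that the lox sites leave in place are included, and the position of those sites is not given in the sources used here. Notch1 stood at 570 ± 44.4, 180 ± 19.9, 774 ± 160 and 149 ± 46.7 CPM in the same order, and the Notch target Dtx1 at 85.4 ± 5.66, 0.124 ± 0.0602, 121 ± 51.3 and 0.208 ± 0.188. The libraries labelled NICD_TCFWT were thus low in Notch1 and near 0 in Dtx1, and those labelled NOTCHWT_TCFWT were high in both. A second name in the sample titles calls the libraries RAD in NOTCHWT_TCFWT, RNIC-CTRL in NICD_TCFWT, RNIC-Tg in NICD_TCFKO and Tcf7-Tg in NOTCHWT_TCFKO, and the sources used here do not say what these words mean. High Notch1 and Dtx1 beside low Tcf7 is the pattern the labels describe for NICD_TCFKO. The NOTCHWT_TCFWT libraries were high in Notch1 and Dtx1, but their Tcf7 was low only beside that of NICD_TCFKO. It lay above every library of NICD_TCFWT (not called, edgeR adjusted p 0.121) and of NOTCHWT_TCFKO (called, adjusted p 0.00603). Whether labels were exchanged between groups, so that NOTCHWT_TCFWT, the baseline of the main comparisons, is not wild type, was not tested. Every direction given from here on is a direction between labelled libraries, and whether it is one between the labelled genotypes was not tested. Library totals ran from 30453271 to 43790674 counts. Library 1 of NOTCHWT_TCFKO held both Xist and Y-linked transcripts. Without that library 7 of the 8 genes were still called in NOTCHWT_TCFKO against NOTCHWT_TCFWT. The call count of NICD_TCFKO against NOTCHWT_TCFKO fell from 3 to 1 without it, and that of the interaction from 7 to 6. That of NICD_TCFKO against NOTCHWT_TCFWT fell from 3 to 2. In bulk RNA, fewer cells of a type and less RNA per cell cannot be told apart.

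Of the 8 factors, 6 were higher in NICD_TCFWT than in NOTCHWT_TCFWT and 7 were higher in NOTCHWT_TCFKO than in NOTCHWT_TCFWT, with none lower in either. Over all 16024 genes tested, 20.4% were called in the first of these comparisons (10.6% higher and 9.75% lower) and 21.3% in the second (10.8% higher and 10.5% lower), by edgeR's quasi-likelihood F test at an adjusted p under 0.05. The median log2 fold change of the 8 genes was 2.21 and 3.28, against 0.0 over all genes in both. Both comparisons use the same 3 NOTCHWT_TCFWT libraries, so their calls are not independent of each other. NICD_TCFKO was called lower than NICD_TCFWT in 1 of the 8 genes, Cebpa, and higher in none, where 12.4% of all genes were called and 5.15% were lower. It was called lower than NOTCHWT_TCFKO in 3 of the 8, Cebpa, Cebpb and Cebpd, where 18.4% of all genes were called and 8.06% were lower. It was called higher than NOTCHWT_TCFWT in 3 of the 8, Cebpa, Gfi1 and Irf8, where 6.3% of all genes were called and 4.01% were higher. Between NOTCHWT_TCFKO and NICD_TCFWT edgeR called 0 of the 8, with 1 (Cebpb) at an unadjusted p under 0.05 and 0 by DESeq2 and limma-voom, where 2.87% of all genes were called.

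The libraries of the compared groups did not overlap for 7 of the 8 genes in NICD_TCFWT and for 7 in NOTCHWT_TCFKO, all above NOTCHWT_TCFWT, as was so for 22.3% and 18.4% of all genes. For NICD_TCFKO, 5 of the 8 lay wholly above NOTCHWT_TCFWT (13.8% of all genes), 2 wholly below NICD_TCFWT (18.3%) and 4 wholly below NOTCHWT_TCFKO (15.7%). The 2 were Cebpa and Spi1, and the share of 2 in 8 is near that of all genes.

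**Figure D1:**
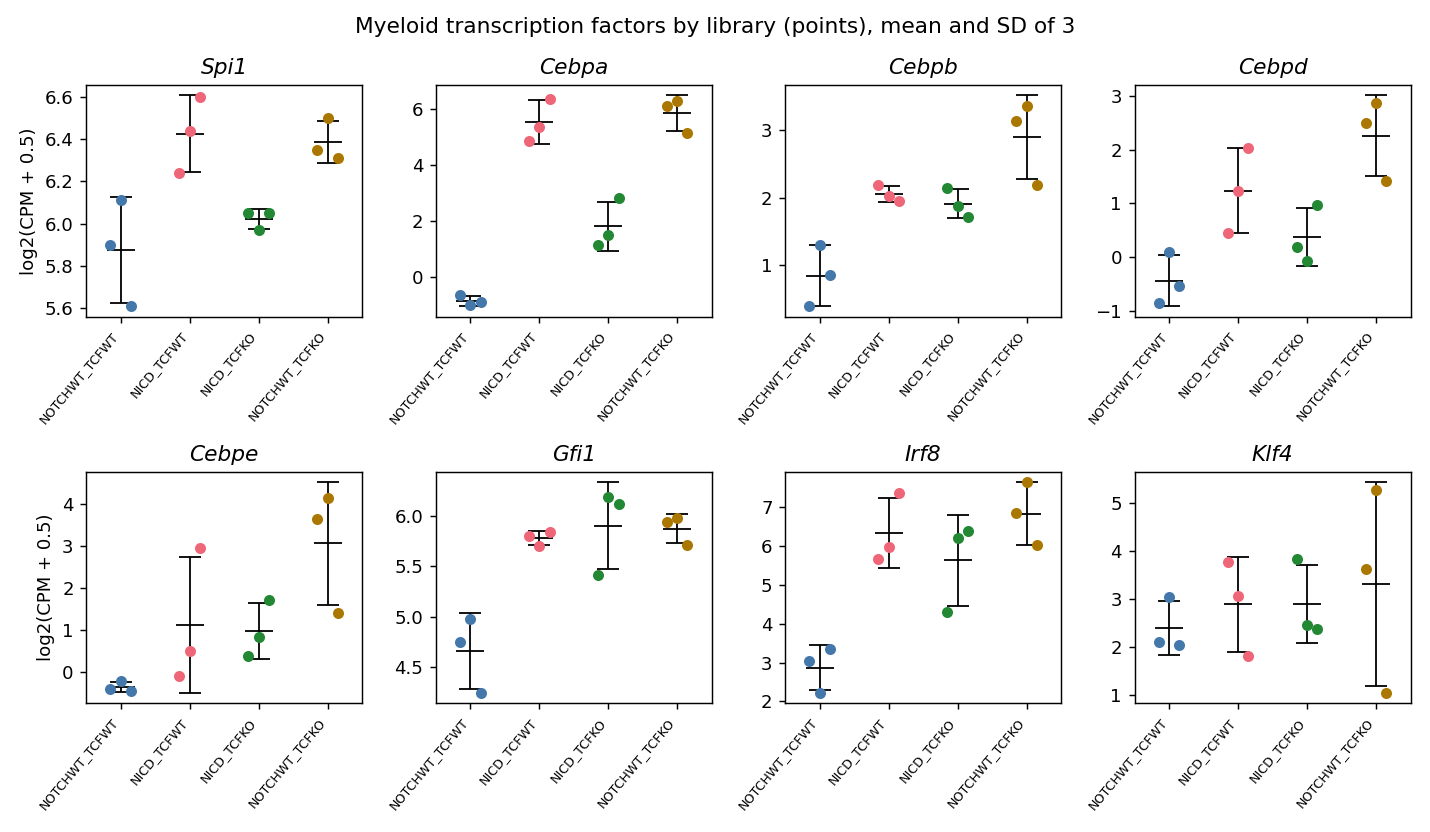
Log2(CPM + 0.5) of the 8 factor genes on the vertical axis, each panel with its own scale, in each library (points) of the 4 labelled groups, with bars for the mean and SD of 3 libraries. Cebpa is near the bottom of its range in NOTCHWT_TCFWT, low in NICD_TCFKO and high in the other 2 groups, while Klf4 overlaps between all groups.

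Spi1 was the most abundant of the factors per kb of exon in NOTCHWT_TCFWT, at 21.8 CPM per kb. Its libraries read 59.1, 68.4 and 48.5 CPM in the NOTCHWT_TCFWT libraries against 75.3, 86.3 and 96.3 in the NICD_TCFWT ones. NICD_TCFKO libraries read 65.8, 62.2 and 65.5 and NOTCHWT_TCFKO libraries 81.1, 90.2 and 78.9. The libraries of NICD_TCFWT and NOTCHWT_TCFKO all lay above those of NOTCHWT_TCFWT, and the NICD_TCFKO libraries fell within the range of NOTCHWT_TCFWT. The log2 fold change was 0.55 ± 0.12 (SE, adjusted p 0.0103, edgeR) in NICD_TCFWT and 0.51 ± 0.12 (adjusted p 0.0138) in NOTCHWT_TCFKO against NOTCHWT_TCFWT. Every NICD_TCFKO library was below every NICD_TCFWT library and every NOTCHWT_TCFKO library, but neither difference was called, at -0.41 ± 0.12 (adjusted p 0.0507) and -0.37 ± 0.12 (adjusted p 0.0587). The first was called with DESeq2 (adjusted p 0.0192), with limma-voom (0.0485), with a covariate for Y-linked transcripts (0.0399) and without library 2 (0.0354) or 3 (0.0312) of NOTCHWT_TCFWT, and the second with DESeq2 (0.0265), with that covariate (0.0397) and without the same libraries (0.0365 and 0.033). The size of the change of this factor was thus small beside that of the C/EBP genes and Irf8, and without library 2 of NOTCHWT_TCFKO its call against NOTCHWT_TCFWT was lost (adjusted p 0.0577).

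Cebpa had the largest fold change of the 8 factors in all comparisons with NOTCHWT_TCFWT. It had 5, 0 and 2 counts in the 3 NOTCHWT_TCFWT libraries, or 0.144, 0 and 0.0467 CPM. NICD_TCFWT read 28.5, 41.3 and 82.6 CPM, NICD_TCFKO 1.75, 2.32 and 6.57, and NOTCHWT_TCFKO 69.7, 78.9 and 34.7. The 4 groups fell on 3 separate levels: close to 0, between 1.75 and 6.57 CPM, and from 28.5 CPM upward, where NICD_TCFWT and NOTCHWT_TCFKO overlapped. Against NOTCHWT_TCFWT the log2 fold change was 9.54 ± 0.95 (adjusted p 0.000223) in NICD_TCFWT, 9.81 ± 0.96 (adjusted p 0.000153) in NOTCHWT_TCFKO and 5.7 ± 0.95 (adjusted p 0.00988) in NICD_TCFKO. The ratios rest on 7 counts in the lower group. The pooled CPM ratios were 780 (exact 95% interval 378 to 1942), 929 (451 to 2311) and 54.5 (26.2 to 136), and these intervals cover counting error only.

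Cebpa was the only one of the 8 called lower in NICD_TCFKO than in NICD_TCFWT, at -3.84 ± 0.65 on the log2 scale (adjusted p 0.00603), and it was lower than in NOTCHWT_TCFKO, at -4.11 ± 0.65 (adjusted p 0.00316). Under all 22 alternatives run for each of these comparisons the call held, with log2 fold changes of -3.29 to -4.63 and -3.8 to -4.91. With a covariate for Y-linked transcripts, which 2 of the 3 NICD_TCFWT libraries and 1 of the 3 NICD_TCFKO libraries held, Irf8 (-1.23, adjusted p 0.0483) and Spi1 (-0.45, adjusted p 0.0399) were also called lower in NICD_TCFKO than in NICD_TCFWT. The call of NICD_TCFKO against NOTCHWT_TCFWT was lost with limma-voom (adjusted p 0.252) and without library 3 of NOTCHWT_TCFWT (adjusted p 0.0582). NICD_TCFWT and NOTCHWT_TCFKO did not differ by the test (adjusted p 0.821), which does not show that their levels are alike.

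The other C/EBP genes were at lower CPM. Cebpb, one of the inflammatory members of the family, read 0.807, 1.95 and 1.31 CPM in the NOTCHWT_TCFWT libraries against 4.07, 3.57 and 3.35 in the NICD_TCFWT ones. Values of 3.95, 3.15 and 2.79 stood in NICD_TCFKO and of 8.29, 9.74 and 4.05 in NOTCHWT_TCFKO. All libraries of the 3 other groups lay above those of NOTCHWT_TCFWT. Cebpb was higher in NICD_TCFWT by 1.44 ± 0.37 (adjusted p 0.0201) and in NOTCHWT_TCFKO by 2.44 ± 0.38 (adjusted p 0.00135), and by 1.28 ± 0.37 in NICD_TCFKO, which was not called (adjusted p 0.0658). The last was called with DESeq2 (adjusted p 0.0115), without library 2 of NOTCHWT_TCFWT (0.0472) and without library 3 of NOTCHWT_TCFKO (0.0325). Against NOTCHWT_TCFKO, NICD_TCFKO stood at -1.16 ± 0.36 (adjusted p 0.0478), a call lost with the replicate block (adjusted p 0.066), with limma-voom (0.0507), with no filter on low counts (0.0518), with only its own groups (0.106), with covariates for the recurring S numbers of the titles (0.0769) or for Y-linked transcripts (0.0523) and on leaving out any of 9 libraries, all but NOTCHWT_TCFWT 1 and 2 and NOTCHWT_TCFKO 3 (0.0573 to 0.156). The NICD_TCFWT call was lost without library 1 (0.0732) or 3 (0.0669) of NOTCHWT_TCFWT and without library 1 (0.0665) or 2 (0.0522) of NICD_TCFWT. Between NOTCHWT_TCFKO and NICD_TCFWT, Cebpb was called without library 3 of NOTCHWT_TCFKO (adjusted p 0.0294). Tmem189 ran from 30.6 to 38.7 CPM in group means, lowest in NOTCHWT_TCFKO where Cebpb was highest.

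Cebpd, at 27 counts in NOTCHWT_TCFWT in all, read 0.0577, 0.562 and 0.187 CPM there against 0.868, 1.85 and 3.57 in NICD_TCFWT. NICD_TCFKO libraries read 0.65, 0.46 and 1.47 and NOTCHWT_TCFKO libraries 5.12, 6.74 and 2.18. NICD_TCFKO overlapped both NOTCHWT_TCFWT and NICD_TCFWT. Cebpd was higher in NICD_TCFWT by 2.98 ± 0.82 (adjusted p 0.0266) and in NOTCHWT_TCFKO by 4.14 ± 0.85 (adjusted p 0.00628). NICD_TCFKO stood below NOTCHWT_TCFKO at -2.44 ± 0.76 (adjusted p 0.0488), a call lost with the replicate block (adjusted p 0.062), with library totals alone (0.0504), with no filter (0.062), with only its own groups (0.0591) and on leaving out any of 8 libraries, all but NOTCHWT_TCFWT 1 and 2, NICD_TCFWT 3 and NOTCHWT_TCFKO 3 (0.0515 to 0.158). The NICD_TCFWT call was lost with limma-voom (0.0564), without library 1 (0.0794) or 3 (0.097) of NOTCHWT_TCFWT and without library 2 (0.0559) or 3 (0.0924) of NICD_TCFWT. Group means of Spidr rose in the same order as those of Cebpd. They were 45.3 CPM in NOTCHWT_TCFWT, 46.5 in NICD_TCFKO, 48 in NICD_TCFWT and 52.1 in NOTCHWT_TCFKO. Every NOTCHWT_TCFKO library of Spidr lay above every NOTCHWT_TCFWT one, without a call (edgeR adjusted p 0.0698). The part of Spidr reads in the Cebpd counts was not tested.

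Cebpe read 0.259, 0.364 and 0.233 CPM in the NOTCHWT_TCFWT libraries against 0.434, 0.925 and 7.25 in the NICD_TCFWT ones. With both labels (NICD_TCFKO) it read 0.8, 1.28 and 2.74, and with the Tcf7 label alone (NOTCHWT_TCFKO) 11.9, 17 and 2.13. In Cebpe, 1 library in each of NICD_TCFWT and NOTCHWT_TCFKO stood far from the other 2, so the coefficient of variation was 132% and 73%. Against NOTCHWT_TCFWT, Cebpe was higher in NOTCHWT_TCFKO by 5.17 ± 1.20 (adjusted p 0.0129) and was not called in NICD_TCFWT, at 3.33 ± 1.13 (adjusted p 0.0636). The NOTCHWT_TCFKO call was lost with limma-voom (adjusted p 0.0704) and without library 1 (0.0567) or 3 (0.0544) of NOTCHWT_TCFWT. Cebpe was called in NICD_TCFWT by DESeq2 (adjusted p 0.00226), with the covariate for Y-linked transcripts (0.00998), without library 1 of NICD_TCFWT (0.0415) and without library 3 of NOTCHWT_TCFKO (0.0467). Without library 3 of NICD_TCFWT the log2 fold change was 1.24 (adjusted p 0.364), and limma-voom gave 2.32 (adjusted p 0.418). NICD_TCFKO was called below NOTCHWT_TCFKO for Cebpe with the covariate for Y-linked transcripts (-3.38, adjusted p 0.0134), with DESeq2 (0.0131), with the covariate for S numbers (0.0298) and without library 3 of NICD_TCFWT (0.0334), and above NOTCHWT_TCFWT with the covariate for Y-linked transcripts (3.07, adjusted p 0.0422).

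**Figure D2:**
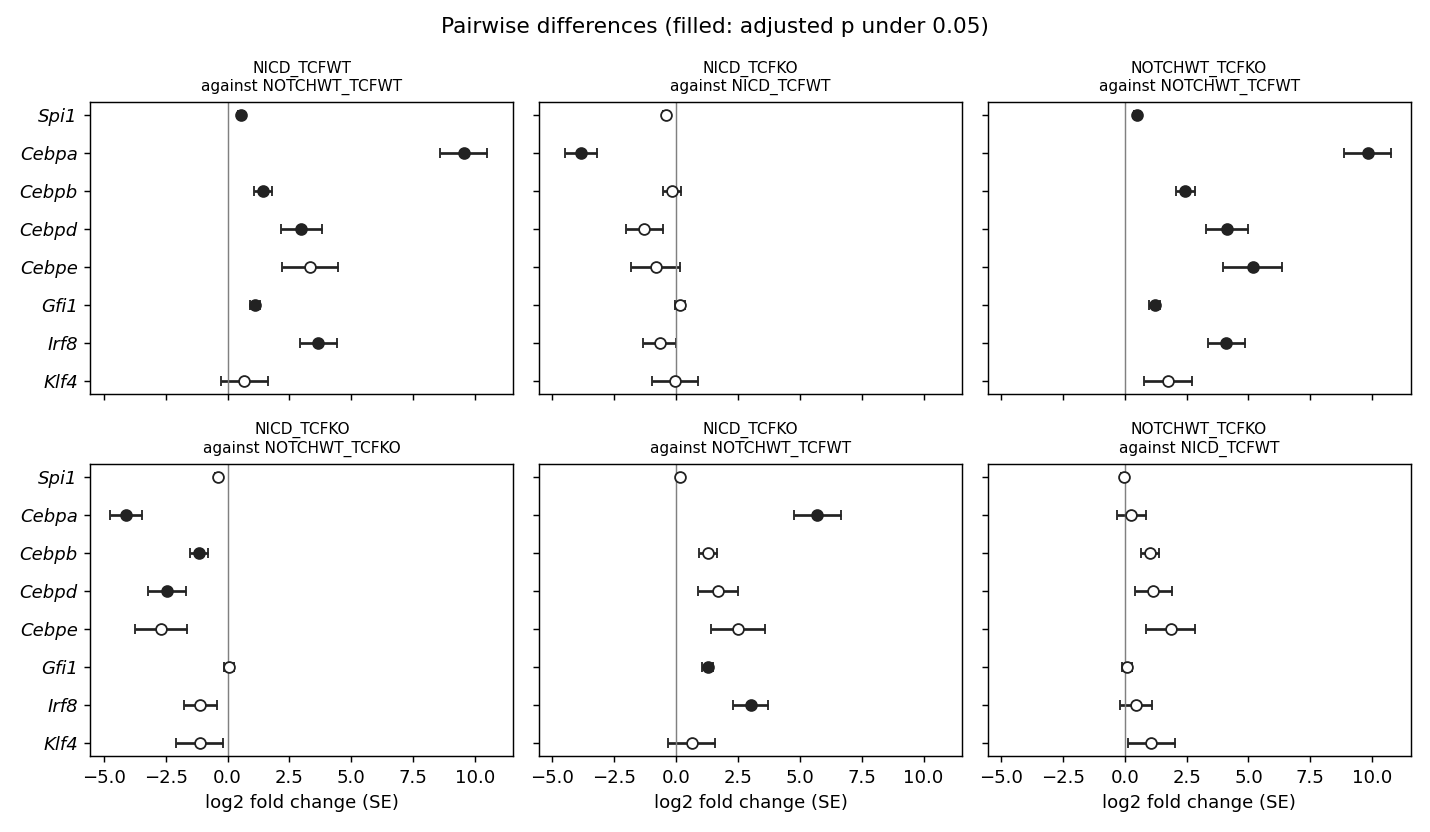
Log2 fold changes (points) with SE (bars) of the 8 genes on the horizontal axis in the 6 pairwise comparisons, filled where the adjusted p was under 0.05. Cebpa stands farthest from 0 in every comparison but NOTCHWT_TCFKO against NICD_TCFWT, where no gene was called.

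Gfi1 read 26.4, 31.1 and 18.4 CPM in the NOTCHWT_TCFWT libraries against 55.3, 51.6 and 56.8 in the NICD_TCFWT ones. NICD_TCFKO libraries read 42.1, 72.4 and 68.9 and NOTCHWT_TCFKO libraries 61, 62.7 and 51.8. All 3 other groups stood above NOTCHWT_TCFWT without overlap. The log2 fold changes were 1.11 ± 0.22 (adjusted p 0.00563) in NICD_TCFWT, 1.27 ± 0.22 (adjusted p 0.00897) in NICD_TCFKO and 1.21 ± 0.22 (adjusted p 0.00338) in NOTCHWT_TCFKO. The call of NICD_TCFKO was lost in a fit of only its own groups (adjusted p 0.0593), and the 3 higher groups were not told apart by the test. Between NICD_TCFKO and NICD_TCFWT, where Cebpa was lower, Gfi1 stood at 0.16 (adjusted p 0.662). A430072P03Rik, on the opposite strand, had 332 counts in all against 23051 for Gfi1. In the same 3 groups it was called higher than in NOTCHWT_TCFWT. The edgeR adjusted p was 0.00297 in NICD_TCFWT, 0.0373 in NICD_TCFKO and 0.0081 in NOTCHWT_TCFKO. The part of its reads in the Gfi1 counts was not tested.

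Irf8 read 7.78, 4.16 and 9.61 CPM in the NOTCHWT_TCFWT libraries against 50.2, 62.6 and 164 in the NICD_TCFWT ones. Values of 19.1, 73.3 and 82.7 stood in NICD_TCFKO and of 114, 197 and 63.9 in NOTCHWT_TCFKO. Every library of the 3 other groups exceeded every NOTCHWT_TCFWT library. Irf8 was higher in NICD_TCFWT by 3.67 ± 0.74 (adjusted p 0.00843) and in NOTCHWT_TCFKO by 4.11 ± 0.75 (adjusted p 0.00499). It was higher in NICD_TCFKO by 3.01 ± 0.72 (adjusted p 0.041). That call was lost with limma-voom (adjusted p 0.149), with the replicate block (0.0689), with no filter (0.0759), with only its own groups (0.0761) and on leaving out any of 8 libraries: all 3 of NOTCHWT_TCFWT, NICD_TCFWT 1 and 2, NICD_TCFKO 2 and 3, and NOTCHWT_TCFKO 1 (0.0512 to 0.121). With the covariate for Y-linked transcripts, Irf8 was called lower in NICD_TCFKO than in NICD_TCFWT (-1.23, adjusted p 0.0483) and than in NOTCHWT_TCFKO (-1.77, adjusted p 0.00902).

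Klf4 read 3.81, 7.8 and 3.64 CPM in the NOTCHWT_TCFWT libraries against 13.3, 7.92 and 3.03 in the NICD_TCFWT ones. With both labels (NICD_TCFKO) it read 13.8, 5.03 and 4.7, and with the Tcf7 label alone (NOTCHWT_TCFKO) 11.8, 37.9 and 1.58. The groups overlapped throughout, and no comparison was called. Against NOTCHWT_TCFWT the log2 fold changes were 0.67 ± 0.95 (adjusted p 0.672) in NICD_TCFWT and 1.75 ± 0.97 (adjusted p 0.235) in NOTCHWT_TCFKO. The highest over the lowest library was 24.1-fold in NOTCHWT_TCFKO.

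The interaction asks whether the difference between NICD_TCFKO and NOTCHWT_TCFKO differs from that between NICD_TCFWT and NOTCHWT_TCFWT. It was called negative for 7 of 8 genes, all but Klf4, where 27.4% of all genes were called and 13.5% were lower. The median over the 8 genes was -3.69. The call of Gfi1 was lost without NOTCHWT_TCFWT 1, NICD_TCFWT 1 or 3, or NOTCHWT_TCFKO 1 or 2 (adjusted p 0.051 to 0.0615), and that of Cebpe with limma-voom (0.122). The labels' checks ran against the design in the same 4 groups, so the interaction compares libraries as labelled.

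Within groups the factors differed in which library was highest. Library 3 of NICD_TCFWT was the highest of its group for Spi1, Cebpa, Cebpd, Cebpe, Gfi1 and Irf8 and the lowest for Cebpb and Klf4. Library 1 of NICD_TCFKO was the lowest for Cebpa, Cebpe, Gfi1 and Irf8 and the highest for Spi1, Cebpb and Klf4. Library 3 of NOTCHWT_TCFKO was the lowest of its group for all 8 genes, and it was also the lowest for the granule genes Mpo and Elane and for their list sum. Its Csf3r stood at 263 CPM, above the other 2.

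**Figure D3:**
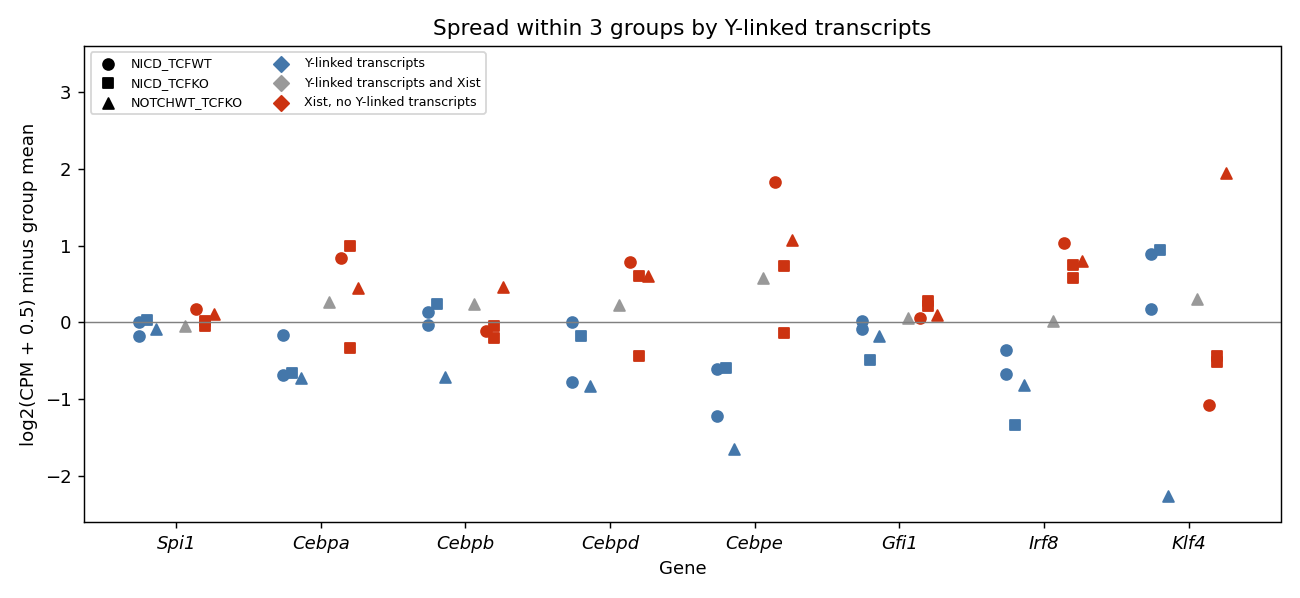
Log2(CPM + 0.5) minus the group mean of each library for the 8 genes in the 3 groups other than NOTCHWT_TCFWT (symbols), coloured by whether Y-linked transcripts, Xist or both were present. Irf8 lies higher in every library with Xist alone than in every library with Y-linked transcripts alone.

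Libraries without Y-linked transcripts were compared with those that had them, within groups and without library 1 of NOTCHWT_TCFKO, a comparison chosen after seeing the data. Irf8 was higher without Y-linked transcripts by 1.75 ± 0.23 on the log2 scale (edgeR, adjusted p 0.0292), where 0.273% of 16485 genes were called higher. The call was lost on leaving out 7 of 8 libraries in turn (adjusted p 0.0513 to 0.119) and kept without library 2 of NICD_TCFKO (0.0331). Cebpe stood at 2.57 ± 0.45 (adjusted p 0.0551) and was called without library 1 (0.0338) or 2 (0.0119) of NICD_TCFKO. Cebpa stood at 1.27 ± 0.36 (adjusted p 0.158) and Klf4 at -0.52 ± 1.16 (0.872). The NOTCHWT_TCFWT libraries all lacked Y-linked transcripts. In NICD_TCFWT only library 3 lacked them, and only its S number repeats an earlier one of the titles. The 2 traits cannot be told apart in that group. Library 3 of NICD_TCFKO also had both traits.

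Genes that act beside or downstream of the factors were counted over lists of known roles. Of 26 granule and oxidase genes, 7 were higher in NICD_TCFWT and 13 in NOTCHWT_TCFKO against NOTCHWT_TCFWT, with none lower, or 26.9% and 50% of the list where 10.6% and 10.8% of all genes were higher. With limma-voom the counts were 4 and 7, with the covariate for Y-linked transcripts the second was 22 and with that for S numbers 20. Without 1 library they ran from 4 to 8 and from 6 to 14, with 4 in the first without any of the NOTCHWT_TCFWT libraries or NICD_TCFWT 3, and with 6 to 8 in the second without any of the NOTCHWT_TCFWT libraries or NOTCHWT_TCFKO 2. The list's median log2 fold change was 0.68 and 6.4, against 0.0 over all genes in both, and up to 8 of the 26 genes were at 0 in a NOTCHWT_TCFWT library, so these medians are no bounds. Myeloperoxidase (Mpo), the main peroxidase of neutrophil granules, read 35.3, 18.7 and 16.4 CPM in the NOTCHWT_TCFWT libraries against 1253, 2162 and 4674 in the NICD_TCFWT ones. NICD_TCFKO libraries read 368, 225 and 712 and NOTCHWT_TCFKO libraries 5082, 5340 and 949. Mpo rose by 6.84 ± 0.92 (adjusted p 0.00123) in NICD_TCFWT and by 7.34 ± 0.94 (adjusted p 0.000821) in NOTCHWT_TCFKO. Prtn3 and Ctsg, serine proteases of the same granules, rose by 4.96 ± 0.97 and 4.21 ± 0.79 in NICD_TCFWT. Elane read 0.519, 0.198 and 0.583 CPM in the NOTCHWT_TCFWT libraries against 8.93, 12.9 and 307 in the NICD_TCFWT ones. Values of 12.2, 12.5 and 58.7 stood in NICD_TCFKO and of 690, 827 and 71.6 in NOTCHWT_TCFKO, so that 1 library of NICD_TCFWT stood far above the other 2. The list's summed level was 478 to 566 CPM in NOTCHWT_TCFWT, 2044 to 6709 in NICD_TCFWT, 872 to 1968 in NICD_TCFKO and 1969 to 12246 in NOTCHWT_TCFKO. These sums weigh Mpo heavily, which held 1253, 2162 and 4674 CPM of the NICD_TCFWT sums of 2044, 3151 and 6709. Of the 26 genes, 0 were called in NICD_TCFKO against NICD_TCFWT (0 to 2 under the alternatives), where 12.4% of all genes were called. The list's median log2 fold change there was 0.28.

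**Figure D4:**
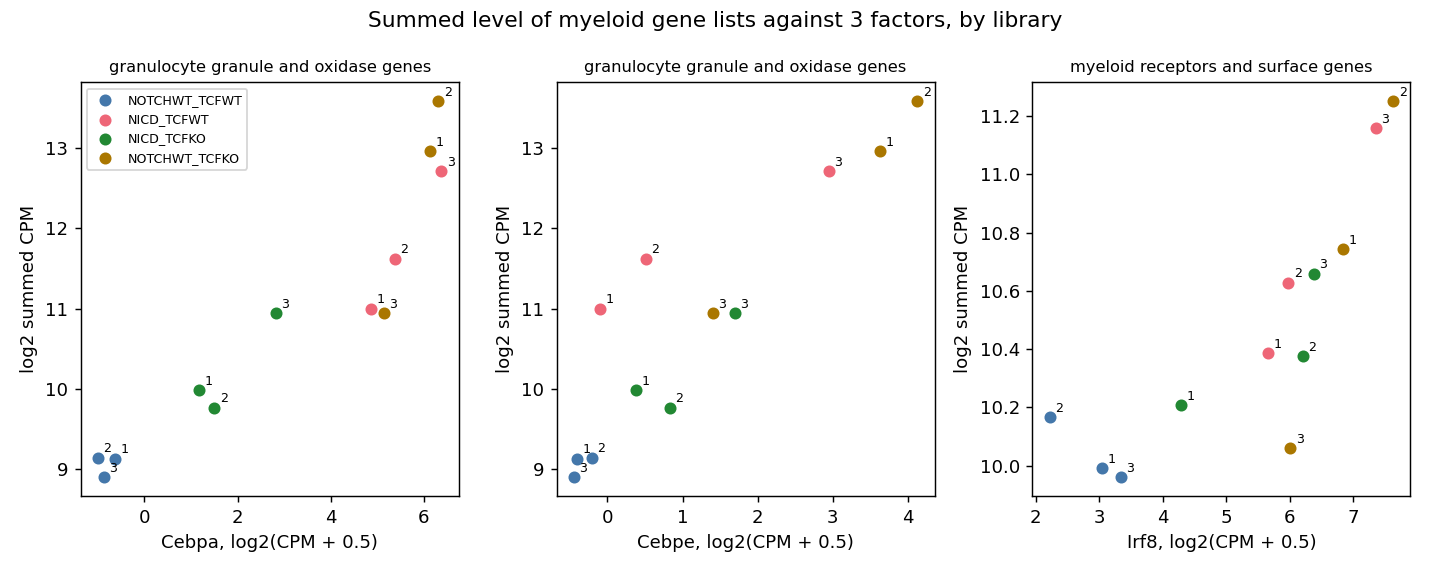
Log2 of the summed CPM of 2 myeloid gene lists (vertical axes) against log2(CPM + 0.5) of Cebpa, Cebpe and Irf8 (horizontal axes), with each library's number beside its point. The 3 NOTCHWT_TCFWT libraries sit at the left in all 3 panels. In the NICD_TCFWT libraries the sum of the granule and oxidase list was mostly Mpo.

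Of 24 myeloid receptor and surface genes, 9 were higher and 2 lower in NICD_TCFWT, and 15 were higher and 2 lower in NOTCHWT_TCFKO, against NOTCHWT_TCFWT, with medians of 0.71 and 1.22. That is 45.8% and 70.8% of the list in either direction, against 20.4% and 21.3% of all genes. The calls of the first fell from 11 to 7 with limma-voom and without NICD_TCFWT 3, and to 6 without NOTCHWT_TCFWT 1 or 2, and those of the second from 17 to 10 and 11 without NOTCHWT_TCFWT 1 and 3. The G-CSF receptor gene Csf3r rose by 2.44 ± 0.39 (adjusted p 0.00244) in NICD_TCFWT, from 50.7 ± 27.6 to 275 ± 43.8 CPM, and fell by 2.0 ± 0.38 (adjusted p 0.0101) in NICD_TCFKO against NICD_TCFWT. The interleukin 6 receptor gene Il6ra rose by 4.96 ± 0.46 (adjusted p 0.000102) in NICD_TCFWT. Ccr2, the receptor of monocyte chemokines, read 12 ± 3.16 CPM in NOTCHWT_TCFWT, 506 ± 123 in NICD_TCFWT, 116 ± 51.6 in NICD_TCFKO and 67.2 ± 67.9 in NOTCHWT_TCFKO.

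Of 36 other myeloid regulators, 1 was higher and 6 were lower in NICD_TCFWT against NOTCHWT_TCFWT, and 5 were higher and 3 lower in NOTCHWT_TCFKO, with medians of 0.08 and 0.14. These 19.4% and 22.2% of the list are near the shares of all genes, 20.4% and 21.3%, so the counts are no result about the list, and its genes are named as single values. Without NICD_TCFWT 1 or 2 the first count fell from 7 to 4. Irf1, an interferon-response factor, fell by 1.17 ± 0.17 (adjusted p 0.00112) in NICD_TCFWT. Runx1, a regulator of stem cell formation that also acts in myeloid cells, fell by 0.64 ± 0.12 (adjusted p 0.00386). Spic, an ETS factor of red pulp macrophages, rose by 1.52 ± 0.18 (adjusted p 0.000247) in NOTCHWT_TCFKO against NOTCHWT_TCFWT. Gata2, a stem and mast cell factor, fell by 1.44 ± 0.31 (adjusted p 0.0247) in NICD_TCFKO against NOTCHWT_TCFWT.

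Macrophage markers moved with the NOTCHWT_TCFKO results, and 11 of the 12 marker genes were tested. All 11 were higher in NOTCHWT_TCFKO against NOTCHWT_TCFWT, where 10.8% of all genes were higher. Of them, 10 were also higher against NICD_TCFWT, where 1.34% of all genes were higher. In NICD_TCFWT against NOTCHWT_TCFWT 6 of the 11 were higher (10.6% of all genes), and in the interaction all 11 were lower (13.5% of all genes). The summed markers ran from 426 to 586 CPM in the 3 NOTCHWT_TCFKO libraries, against 21.3 to 28.2 in NOTCHWT_TCFWT, 39.3 to 49.7 in NICD_TCFWT and 28.2 to 40.8 in NICD_TCFKO. No marker was at 0 in NOTCHWT_TCFKO, and 1 to 3 of them were at 0 in each library of the other groups. Their part in the levels of the 8 factors was not tested. Megakaryocyte markers were higher in 7 of 8 genes in NICD_TCFWT against NOTCHWT_TCFWT, where 10.6% of all genes were higher. In NOTCHWT_TCFKO against NOTCHWT_TCFWT 3 of the 8 were higher, as were 10.8% of all genes. They were lower in 5 of 8 in NICD_TCFKO against NICD_TCFWT (5.15% of all genes) and in 7 of 8 in the interaction (13.5%). Their sum was 395 to 480 CPM in NICD_TCFWT, 219 to 284 in NOTCHWT_TCFWT, 116 to 228 in NICD_TCFKO and 274 to 355 in NOTCHWT_TCFKO, and at most 1 of the 8 was at 0 in a library. The first count fell from 7 to 3 without any 1 of the NICD_TCFWT libraries and to 4 without NOTCHWT_TCFWT 2 or 3. The NOTCHWT_TCFKO count of 3 was 1 with no filter on low counts and 6 with DESeq2. It ran from 1 to 4 on leaving out a library. The part of megakaryocyte markers in the factors' levels was not tested. T lineage markers were called higher in 13 of 13 genes in NICD_TCFKO against NICD_TCFWT, where 7.25% of all genes were higher, and their sum was 988 to 2894 CPM against 52.7 to 85.8 in NICD_TCFWT, 461 to 513 in NOTCHWT_TCFWT and 41.5 to 69.1 in NOTCHWT_TCFKO. Their part in the lower Cebpa of NICD_TCFKO was not tested.

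The order of the factors per kb changed with the group. In NOTCHWT_TCFWT the means per kb were 21.8 for Spi1, 7.94 for Gfi1, 1.67 for Klf4, 1.02 for Irf8, 0.901 for Cebpb, 0.23 for Cebpe, 0.0717 for Cebpd and 0.0241 for Cebpa. In NOTCHWT_TCFKO they were 31 for Spi1, 23.2 for Cebpa, 18.4 for Gfi1, 17.8 for Irf8, 8.32 for Cebpe, 5.6 for Klf4, 4.89 for Cebpb and 1.25 for Cebpd. Cebpa thus stood last of the 8 in the first group and second in the other, in CPM per kb of exon.

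The genes whose pattern over the 12 libraries was most like that of each factor were found by the mean absolute difference in centred log2(CPM + 0.5) among genes with a mean of at least 5 CPM. Cebpa was nearest to Mpo (0.55), the hexokinase gene Hk3 (0.64) and Prtn3 (0.71), where its own mean absolute deviation was 2.6. Irf8 was nearest to Slc16a12 (0.43), Vegfa (0.46) and Card9 (0.51), against an own deviation of 1.46. Spi1 was nearest to Pla2g15 (0.06), Rps6ka1 (0.08) and B4gat1 (0.09), against an own deviation of 0.23. Gfi1 was nearest to Ncf1 (0.16), Arntl (0.19) and Rnf144b (0.19), against 0.47. Klf4 was nearest to Klf2 (0.4), Nfkbid (0.5) and Sik1 (0.54), against an own deviation of 0.9. Cebpe was nearest to Anxa3 (0.45), Clec12a (0.46) and Serpine2 (0.49), against 1.3. Cebpb was nearest to Cpeb2 (0.23), Atrnl1 (0.28) and Kcnk6 (0.3), against an own deviation of 0.59. Cebpd was nearest to Hvcn1 (0.3), Fndc3b (0.31) and Clec12a (0.32), against 0.98.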

How the data were processed

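RNA from 12 sorted LSK samples was sequenced as single-end reads of 75 nt. Tools listed in the submitters' processing notes, without roles or order, are cutadapt 1.9.1 and bcl2fastq 2.17, featureCounts 1.4.4 and HISAT2, and limma with edgeR 3.28.0; the build is mm10. The authors deposited raw counts per gene, which were the only values used. A deposited table of log2 values, which the authors call normalized counts, was not used. Library totals ran from 30453271 to 43790674 counts. Genes were filtered by edgeR's filterByExpr by group (16024 tested) and scaled by TMM. All 12 libraries were fitted with 1 mean per group by edgeR 4.0.16 (R 4.3.3) quasi-likelihood and tested two-sided with Benjamini-Hochberg adjustment over all genes tested. SE is the absolute log2 fold change over the square root of F. Exon lengths came from GENCODE M21. The 8 genes and 13 lists were chosen with earlier results of these data known. All 8 genes are named. From each list, up to 4 genes per comparison were chosen by smallest p, some others (Elane, and Ccr2 in groups where it was not called) after their values were seen, and per factor the 3 most alike genes. A list member picked by the rule is not reported here. Fitting was tested on simulated data. Alternatives were other scalings, filters and tools, covariates and leaving out each library.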

Additional observations from a re-analysis of the deposited data

Results flagged for a closer look

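For 7 of the 8 genes the difference between libraries with and without the N1IC label differed between the libraries with and without the Tcf7 deletion label, by edgeR's interaction test. The interaction on the log2 scale was -0.92 for Spi1, -13.65 for Cebpa, -2.6 for Cebpb, -5.42 for Cebpd, -6.01 for Cebpe, -1.05 for Gfi1 and -4.78 for Irf8. Over all genes tested, 27.4% were called in the interaction and 13.5% were lower. Each of these 7 genes was lowest in NOTCHWT_TCFWT, where Cebpa had 7 counts in all.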

How the results depend on the processing

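The calls of the 8 genes in NICD_TCFWT and NOTCHWT_TCFKO against NOTCHWT_TCFWT and in the interaction stayed within 1.5 times of 6, 7 and 7 under every alternative but the leave-one-out runs, which gave 4 to 7, 6 to 7 and 6 to 7. The other comparisons moved, and the cause was not tested. For NICD_TCFKO against NICD_TCFWT the count was 1, and 2 with library totals alone, with a filter of 1 CPM in 3 samples, with DESeq2, with limma-voom and with only the groups of the contrast, and 3 with a covariate for Y-linked transcripts (leave-one-out 1 to 2, with 2 without library 2 or 3 of NOTCHWT_TCFWT). For NICD_TCFKO against NOTCHWT_TCFKO it was 3, but 1 with no filter, 5 with DESeq2, 1 with the replicate block and 5 with the covariate for Y-linked transcripts (leave-one-out 1 to 4). For NICD_TCFKO against NOTCHWT_TCFWT it was 3, but 1 with limma-voom and 1 with only its own groups (leave-one-out 1 to 4). For NOTCHWT_TCFKO against NICD_TCFWT it was 0 by edgeR, DESeq2 and limma-voom, with 1 gene at an unadjusted p under 0.05 (Cebpb) (leave-one-out 0 to 1). The replicate numbers of the labels did not pair the libraries across all groups: the correlation of deviations of same-numbered libraries ran from -0.399 to 0.427. Between NICD_TCFWT and NICD_TCFKO it was 0.318, 0.0926 and 0.427 for numbers 1, 2 and 3. There the same number was the best match for 1 and 3 but not for 2, so pairing of these groups was not settled. The replicate block changed no call count by more than 1.5 times elsewhere. In NICD_TCFKO against NICD_TCFWT, Klf4 turned to 0.01 with limma-voom, 0.13 with the block, 0.06 with a covariate for the libraries whose S number recurs in the titles, 0.51 without NICD_TCFWT 1, 0.2 and 0.23 without NICD_TCFKO 2 and 3, with -0.73 as the lowest value on leaving out a library. Without NICD_TCFWT 3, Cebpe turned to 1.24 (lowest -1.45) and Irf8 to 0.06 (lowest -0.99). In NICD_TCFKO against NOTCHWT_TCFKO, Gfi1 turned to -0.07 with the covariate for Y-linked transcripts, -0.08, -0.03 and -0.04 without NICD_TCFKO 2, NICD_TCFKO 3 and NOTCHWT_TCFKO 3 (highest 0.26), and Klf4 to 0.23 without NOTCHWT_TCFKO 2 (lowest -1.83). In NICD_TCFKO against NOTCHWT_TCFWT, Klf4 turned to -0.06 without NICD_TCFKO 1 (highest 1.09). In NOTCHWT_TCFKO against NICD_TCFWT, Cebpa turned to -0.01 without NICD_TCFWT 1 (highest 0.82), Spi1 to 0.06 without NICD_TCFWT 3 and 0.02 without NOTCHWT_TCFKO 3 (lowest -0.12), and Irf8 to -0.04 (highest 1.17) and Klf4 to -0.26 (highest 1.66) without NOTCHWT_TCFKO 2. In the comparison by Y-linked transcripts, Cebpb turned to -0.3 without NOTCHWT_TCFKO 2 or 3 (highest 0.48), and Klf4 to 0.32 without NICD_TCFWT 3 and 1.19 without NICD_TCFKO 1 (lowest -1.65). None of the values that turned was called in the main comparison. Among the single genes, 68 values lost a call and 31 gained one. Depth limits Cebpa in NOTCHWT_TCFWT, with 7 counts in all.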

Other observations

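Of 15 dendritic cell genes, 2 were higher and 5 lower in NICD_TCFWT than in NOTCHWT_TCFWT, and 6 were higher in NICD_TCFKO than in NICD_TCFWT. Over all genes 10.6% were higher and 9.75% lower in the first comparison and 7.25% higher in the second. The second count fell to 2 without NICD_TCFWT 1 or 2. The MHC class II gene H2-Aa fell by 3.05 ± 0.52 (SE, log2; edgeR adjusted p 0.00365) in NICD_TCFWT, from 195 ± 90.5 to 23.5 ± 6.28 CPM. The integrin gene Itgax rose by 2.7 ± 0.33 (adjusted p 0.00101) in NICD_TCFKO against NICD_TCFWT, to 113 ± 43.7 CPM. Batf3, a factor of cross-presenting dendritic cells, is not among these 15 genes but in the list of other myeloid regulators. It had 0 counts in all 3 NOTCHWT_TCFWT libraries and read 0.125, 3.51 and 1.79 CPM in NICD_TCFKO (5, 145 and 72 counts). Its mean was 0.108 ± 0.108 CPM in NICD_TCFWT and 0.214 ± 0.133 in NOTCHWT_TCFKO.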
